A study of Mus musculus with 18 samples.

Results

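Unstimulated bone-marrow-derived macrophages of mice given lipopolysaccharide (LPS) 4 times were compared with those of mice given it once, across all genes of the count table. The libraries were chosen by the column titles, 3 of the 4xLPS_NO group and 3 of the 1xLPS_NO group, which is 6 of the 18 libraries in the series. Of 43280 gene symbols, 14158 passed a filter of at least 1 CPM, a count scaled by the total of its library, in at least 3 of the 18 libraries, and these are the genes tested. All mice were C57BL/6J, labelled wildtype, and the culture medium was F12 DMEM with serum. The 4xLPS_NO cells came from marrow of mice with 4 in vivo LPS treatments, the 1xLPS_NO cells from mice with 1, and the PBS_NO cells, given as a vehicle reference, from mice treated with PBS. None of these 3 groups received LPS in the dish. The dose, route, interval and mouse age are not given in the labels. The labels do not tell whether the 3 libraries of a group come from separate mice. The p-values therefore reflect only the scatter of libraries within the 6 groups of all 18, which may be technical.

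LPS, a component of the outer membrane of Gram-negative bacteria, is sensed by macrophages through Toll-like receptor 4 (TLR4) with its partners CD14 and MD-2, which activates the transcription factor NF-κB and interferon regulatory factors. Cells exposed before can respond less to a later dose (endotoxin tolerance) or more (trained immunity). Bone-marrow-derived macrophages are grown in culture from marrow precursors.

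The library arms rest on the titles, which the column names share. The treatment tag of the same-titled sample names another arm for 12 of the 18 libraries, exchanging PBS and 4xLPS, and this includes all 3 of the 4xLPS_NO libraries. Joined by the sample number that each column carries, the tag names the arm of the column in 18 of 18 columns. If the same-titled tags were right, the comparison would be PBS against 1xLPS.

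Total counts were 17798409 to 22249109 in 4xLPS_NO and 29720162, 51275987 and 9296453 in 1xLPS_NO libraries 1, 2 and 3. A count of 0 allowed up to 0.0585 to 0.323 CPM in these 6 libraries, taking 3 counts as the limit for counting error alone. Of 30 macrophage identity genes, 29 passed the filter. Their summed level was 56230 to 64040 CPM in 4xLPS_NO and 50930 to 69760 CPM in 1xLPS_NO. The filter alone does not identify the cells, since 29 of 30 genes for collagens and their modifying enzymes passed it as well. Emr1, which encodes the macrophage surface protein F4/80, had 815.3, 606.5 and 681.6 CPM in 4xLPS_NO and 472.6, 912.8 and 855.8 CPM in 1xLPS_NO. The libraries of the 1xLPS_NO group differed among themselves. Library 1 had a score of 66.6 on the 2nd principal component (14.4% of the variance over the 18 libraries), against -29.5 and 9.0 for libraries 2 and 3. Library 2 differed from libraries 1 and 3 in GC content, the share of G and C bases in a transcript. A GC tilt was taken as the log2 CPM of genes in the upper 25% by GC content minus that of the lower 25%, relative to the mean of the 9 unstimulated libraries. It was -0.372 in library 2, 0.709 in library 1 and 0.522 in library 3, and 0.159, -0.244 and -0.178 in 4xLPS_NO. PBS_NO had -0.086, -0.315 and -0.197. Thus 1xLPS_NO libraries 1 and 3 lay above all other unstimulated libraries, and library 2 was the lowest, near PBS_NO library 2. Values with single libraries left out are given beside the results they touch.

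No gene passed the adjusted threshold. With edgeR's quasi-likelihood test, 0 of 14158 genes (0%) had a Benjamini-Hochberg adjusted p under 0.05, and the smallest adjusted p was 0.321. At an unadjusted p under 0.05, 471 genes (3.33%) were higher in 4xLPS_NO and 881 (6.22%) were lower. With library totals as the only scaling, the split was 525 higher and 600 lower. Limma voom also called 0 genes, with 473 higher and 656 lower at the unadjusted level. DESeq2 called 7 higher (0.0494%) and 30 lower (0.212%). The median log2 fold change over all tested genes was -0.02. In the authors' deposited table this comparison carries the verdict "No DE".

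**Figure D1:**
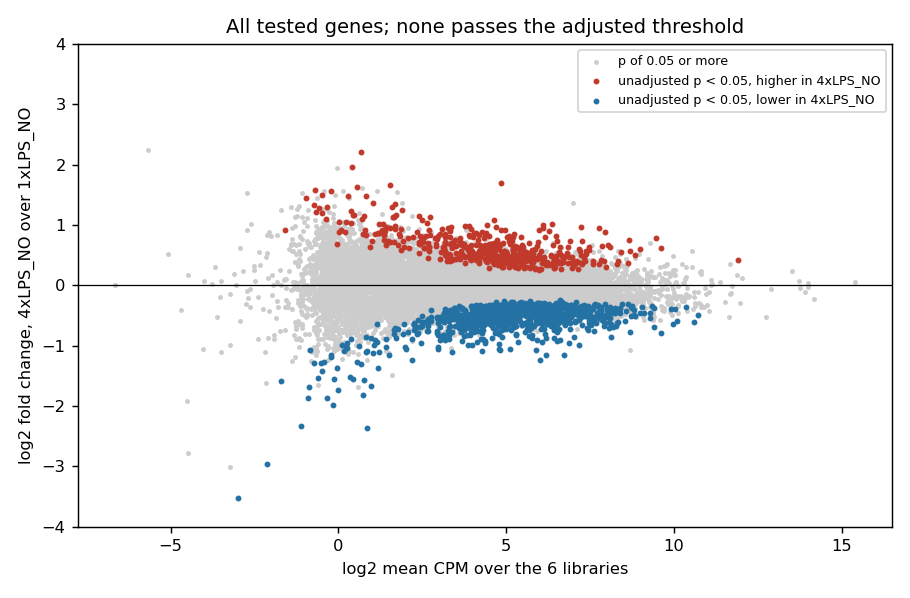
Log2 fold change of 4xLPS_NO over 1xLPS_NO (vertical axis) against the log2 mean CPM over the 6 libraries (horizontal axis), 1 point a gene. Red and blue points mark the 471 higher and 881 lower genes at an unadjusted p under 0.05; no point passes the adjusted threshold.

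Leaving out 1xLPS_NO library 2 moved the count from 0 to 573, of which 225 were higher (1.59% of 14122 genes) and 348 lower (2.46%). The other 5 libraries, left out 1 at a time, gave 0 calls each. Without library 2 the 1xLPS_NO group held libraries 1 and 3, whose GC tilts were 0.709 and 0.522. The calls made without library 2 differed in base composition: the higher genes had a median transcript GC content of 41.8% and the lower genes 57.6%, against 49.8% over all tested genes. With an offset for each library's dependence on GC content, an alternative chosen after seeing the data, 0 genes were called with all libraries and 0 without library 2.

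The fold changes went with GC content. The genes were put in 10 bins of about equal size by GC content. In the bin with the lowest (median 39.9%), the median log2 fold change was 0.19, and 91 genes were higher and 8 lower at an unadjusted p under 0.05. In the bin with the highest (median 59.4%) the median was -0.27, with 7 genes higher and 263 lower. The medians went down step by step through the bins between. Without 1xLPS_NO library 2 they spanned 0.47 to -0.45. With the GC offset, which is fitted to these libraries to remove such a trend, they lay between 0.005 and -0.049. GC content could be assigned to 98.6% of the tested genes.

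**Figure D2:**
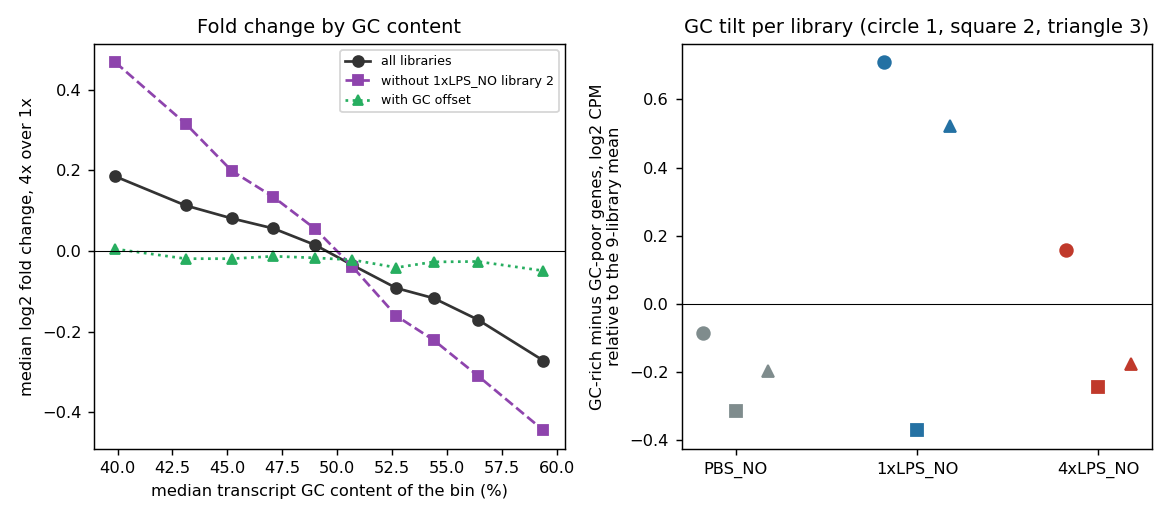
Left, the median log2 fold change of 4xLPS_NO over 1xLPS_NO in each of 10 bins of genes by transcript GC content (percent), for all libraries, without 1xLPS_NO library 2, and with the GC offset. Right, the GC tilt of each library, the log2 CPM of GC-rich minus GC-poor genes relative to the mean of the 9 unstimulated libraries; 1xLPS_NO libraries 1 and 3 sit at 0.709 and 0.522 and library 2 at -0.372.

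Extracellular matrix genes were mostly higher in 4xLPS_NO, though none passed the adjusted threshold. Matricellular proteins sit in the matrix and modulate how cells attach and signal, and fibrillins, laminins and proteoglycans build it. Of the 31 matricellular and matrix genes, 26 passed the filter. At an unadjusted p under 0.05, 11 were higher in 4xLPS_NO and 0 lower, against 3.33% and 6.22% of all genes. In 15 of the 26 the 3 values of 4xLPS_NO all lay above those of 1xLPS_NO, against 5.62% of all genes, and 23 fold changes were positive and 3 negative. Their median log2 fold change was 0.51, against -0.02 over all genes. It was 0.57 without 1xLPS_NO library 1 as well as without library 2, and 0.51 with the GC offset.

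Loxl2, a lysyl oxidase that crosslinks collagen (mm10 chr14:69609068-69695834, plus strand), had 78.0, 78.6 and 88.2 CPM in 4xLPS_NO libraries 1 to 3 and 48.5, 45.7 and 35.6 CPM in 1xLPS_NO. The groups did not overlap, and PBS_NO, at 38.7, 44.9 and 50.4 CPM, overlapped the 1xLPS_NO range. The log2 fold change was 0.91 ± 0.18 (SE), with an unadjusted p of 8.46e-05 and an adjusted p of 0.321 in edgeR. DESeq2 gave an adjusted p of 0.0089, and over 22 alternatives the adjusted p ran from 0.00101 to 0.945, with 7 calls. Its exons overlap those of 2 other annotated genes and a stretch is shared with the predicted gene Gm21451, so reads may be split between them. Loxl2 and the other genes named for a small p or a DESeq2 call were chosen after their values were seen.

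Spp1, osteopontin, had 1201, 1466 and 1423 CPM in 4xLPS_NO and 763.6, 1378 and 1042 CPM in 1xLPS_NO, so its groups overlapped (0.36 ± 0.19, unadjusted p = 0.0676). Thbs1, the matricellular protein thrombospondin 1, had 930.3, 862.3 and 898.7 CPM in 4xLPS_NO and 485.7, 584.9 and 485.4 CPM in 1xLPS_NO. PBS_NO had 537.1, 464.4 and 630.3 CPM, so the 4xLPS_NO values lay above those of both other arms (4xLPS_NO over 1xLPS_NO, log2 fold change 0.79 ± 0.26, edgeR adjusted p = 0.388). Fbn1, the microfibril protein fibrillin 1, had 110.0, 87.3 and 102.4 CPM against 60.3, 54 and 46.8 CPM (0.89 ± 0.24). Tnc, tenascin C, which is made in tissue injury, had 225.8, 294.6 and 340.5 CPM against 169.5, 135.6 and 140.7 CPM (0.95 ± 0.30). Postn, periostin, had 91.6, 120.1 and 114.9 CPM against 40.4, 69.8 and 51.9 CPM (1.01 ± 0.30). Igfbp7, an insulin-like growth factor binding protein, had 148.5, 150.2 and 145.7 CPM against 104.0, 83.2 and 80.6 CPM (0.73 ± 0.19). In each of the 5 genes from Thbs1 to Igfbp7 the lowest 4xLPS_NO library exceeded the highest 1xLPS_NO library. The edgeR adjusted p was 0.355 to 0.388. Fn1, fibronectin, also had groups that did not overlap, at 725.3, 731.9 and 860.0 CPM against 358.6, 540.9 and 529.4 CPM, with an unadjusted p of 0.0651.

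**Figure D3:**
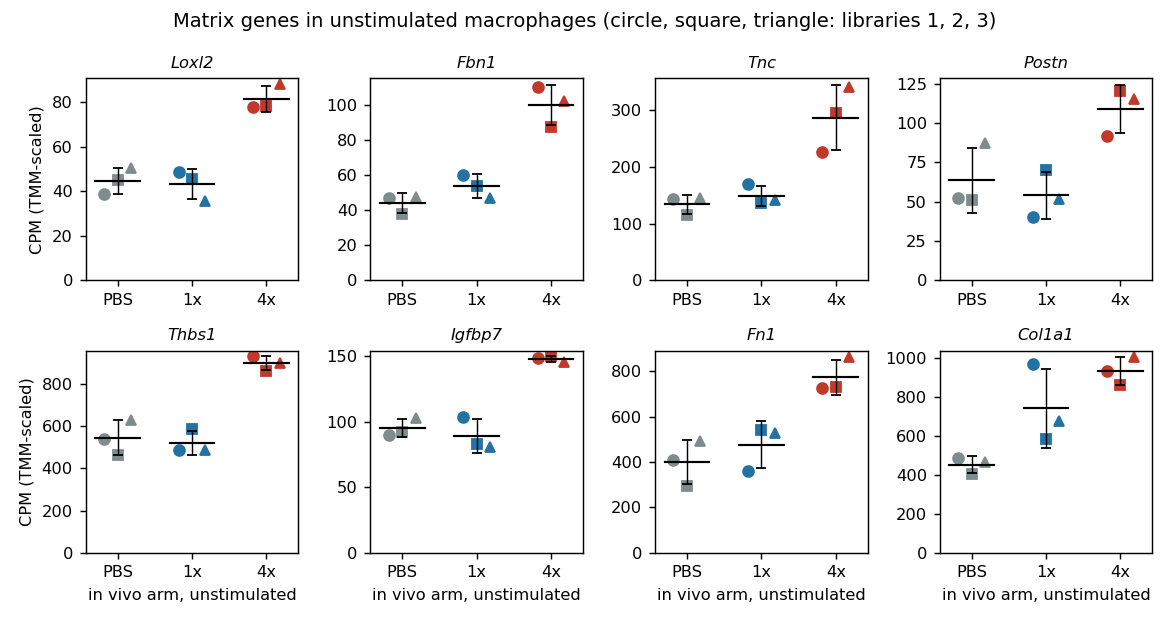
CPM of 8 matrix genes in the unstimulated libraries of the PBS, 1xLPS and 4xLPS arms. Points are libraries, the line is the mean and the bar the SD (n = 3); the 4xLPS points lie above all 1xLPS points in every panel except Col1a1, where 1xLPS library 1 reaches 971.1 CPM.

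Collagens and their modifying enzymes gave fewer small p-values. Of 29 tested, 3 were higher at an unadjusted p under 0.05 (Loxl2, Col8a1 and P4ha2) and 0 lower, against 3.33% and 6.22% of all genes. The median log2 fold change was 0.32. Among the named chains, Col1a1, the main chain of type I collagen, had 933.7, 859.9 and 1006 CPM in 4xLPS_NO and 971.1, 582.1 and 674.6 CPM in 1xLPS_NO (0.33 ± 0.24). 1xLPS_NO library 1 overlaps the 4xLPS_NO values and libraries 2 and 3 do not. Col3a1, of type III collagen, had 199.0, 195.6 and 192.9 CPM against 215.4, 176.2 and 178.0 CPM (0.05 ± 0.22). The collagen median was 0.54 without library 1 and 0.12 without library 2.

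Other stromal lists had positive medians as well. Beside them stand the 3.33% of all genes that were higher and 6.22% that were lower at an unadjusted p under 0.05. For matrix proteases and their inhibitors, 3 of 22 were higher at that level and 0 lower (median 0.32, and 0.21 without 1xLPS_NO library 3). They were Timp3, an inhibitor of metalloproteases with 0.73 ± 0.26, the aggrecanase Adamts5 with 0.84 ± 0.26, and Serpinf1 with 0.47 ± 0.22. Of 26 stromal growth and niche factors, 6 were higher and 0 lower, with a median of 0.37 that was 0.60 without 1xLPS_NO library 1 and 0.24 without library 3. Among them, Fgf7, an epithelial growth factor of mesenchymal cells, had 17.6, 13.1 and 13.5 CPM in 4xLPS_NO and 10.5, 11.0 and 9.49 CPM in 1xLPS_NO (0.50 ± 0.21, and 0.27 with the GC offset). Grem1, a secreted BMP antagonist, had 93.1, 122.1 and 127.2 CPM against 92.1, 80.8 and 60.7 CPM. Csf1, the growth factor that macrophages need to survive, had 252.4, 339.4 and 367.7 CPM against 283.6, 169.6 and 152.4 CPM, so that 1xLPS_NO library 1 lay inside the 4xLPS_NO range. None of the 26 passed the adjusted threshold (edgeR).

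Fibroblast markers also had a positive median. Of 17 stromal cell and fibroblast markers, 14 passed the filter (Lum, Thy1 and Lepr did not). At an unadjusted p under 0.05, 2 were higher and 0 lower, against 3.33% and 6.22% of all genes. The median log2 fold change was 0.28 (0.51 without 1xLPS_NO library 1). The summed level of the list was 3119, 2789 and 3088 CPM in 4xLPS_NO, 3199, 2077 and 2220 CPM in 1xLPS_NO, and 1874, 1671 and 1861 CPM in PBS_NO. 1xLPS_NO library 1 held more of these transcripts than any 4xLPS_NO library, and libraries 2 and 3 held less. In bulk RNA, fewer cells of a type and less RNA per cell cannot be told apart. The matricellular sum differed from that order. It was 6548, 6777 and 7097 CPM in 4xLPS_NO and 5189, 5146 and 4787 CPM in 1xLPS_NO, with library 1 close to libraries 2 and 3. Spp1, a highly expressed member, adds to this closeness, since its 1xLPS_NO value, given above, was lowest in library 1. With Spp1 included, 1xLPS_NO library 1 lay below every 4xLPS_NO library in the matricellular sum. In the fibroblast marker sum it lay above them. No sum was taken without Spp1. The part of stromal cells in the matrix gene values was not tested.

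MHC class II genes, which present antigen to CD4+ T cells, had lower levels in 4xLPS_NO than in 1xLPS_NO, though none passed the adjusted threshold. Of 13 tested genes of this list, 7 were lower at an unadjusted p under 0.05 and 0 higher, and in the same number the groups did not overlap, against 6.22% and 6.45% of all genes. Their median log2 fold change was -0.55 (-0.35 without 1xLPS_NO library 1, -0.70 without library 2, -0.46 with the GC offset). The count of 7 lower genes changed when single libraries were left out. It was 4, 7 and 3 without 1xLPS_NO libraries 1, 2 and 3. Without 4xLPS_NO libraries 1, 2 and 3 it was 6, 2 and 2. Ciita, the transcriptional coactivator that controls the class II genes, had 3.82, 2.43 and 1.83 CPM in 4xLPS_NO and 3.96, 5.67 and 9.80 CPM in 1xLPS_NO (-1.24 ± 0.38). H2-Eb1, a class II beta chain, had 55.0, 30.7 and 28.1 CPM against 79.1, 68.8 and 91.0 CPM (-1.07 ± 0.38). H2-Ab1 had -0.95 ± 0.37 and H2-Aa -0.90 ± 0.37. Cd74, the invariant chain that guides class II through the cell, had 799.9, 479.4 and 454.3 CPM against 980.6, 833.2 and 1169 CPM (-0.78 ± 0.32). H2-DMa and H2-DMb1, which help load peptides, had -0.76 ± 0.29 and -0.55 ± 0.24. In 6 of these 7 genes 4xLPS_NO library 1 was the highest of its group (in H2-DMb1 it was library 3), and edgeR adjusted p-values ran from 0.388 to 0.475. In H2-Aa the PBS_NO libraries, at 94.0, 59.1 and 49.7 CPM, spanned the 4xLPS_NO values of 91.1, 57.9 and 55.8 CPM. Over PBS_NO, Cd74, H2-Eb1, H2-DMa and Ciita had log2 fold changes of 0.043, 0.031, -0.026 and 0.275 in 4xLPS_NO. In 1xLPS_NO the same genes had 0.826, 1.101, 0.737 and 1.519 over PBS_NO, so the 1xLPS_NO arm was the higher one. The costimulatory genes Cd80 and Cd86 had positive fold changes (0.32 and 0.30).

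In MHC class I presentation, 5 of 20 genes were lower at an unadjusted p under 0.05 and 0 higher (6.22% and 3.33% of all genes). Of the 20 fold changes, 18 were negative (median -0.30, and -0.16 without 1xLPS_NO library 1). H2-Q4, a nonclassical class I gene, had 72.7, 60.5 and 48.2 CPM against 104.7, 89.9 and 138.3 CPM, with -0.87 ± 0.22. Its sequence is nearly identical in parts to H2-Q6 and a predicted gene, so its reads are uncertain. The classical genes H2-K1 (-0.15 ± 0.19) and H2-D1 (-0.29 ± 0.17) differed by less.

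**Figure D4:**
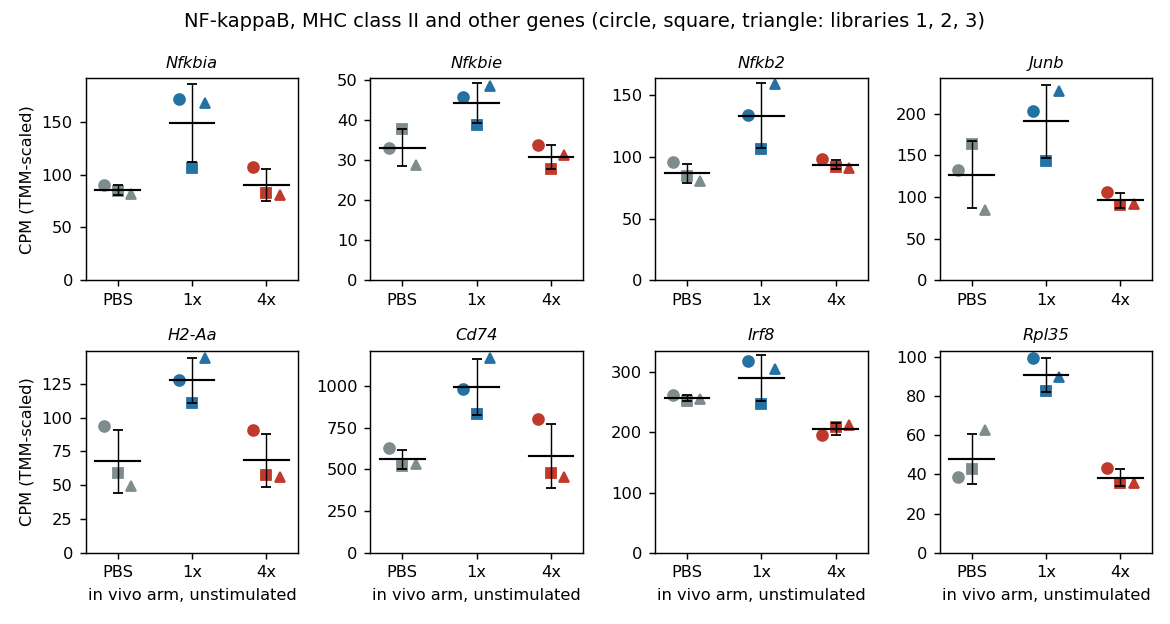
CPM of 8 genes in the unstimulated libraries of the PBS, 1xLPS and 4xLPS arms, points being libraries, the line the mean and the bar the SD (n = 3). The 4xLPS points lie below all 1xLPS points in every panel except Nfkbia, where 4xLPS library 1 (107.4 CPM) slightly exceeds 1xLPS library 2 (106.1 CPM).

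Of 28 tested tolerance and negative feedback regulators, 1 was higher and 5 lower at an unadjusted p under 0.05 (3.33% and 6.22% of all genes), with a median of -0.16 (-0.10 without 1xLPS_NO library 3). The lower ones were the IκB genes Nfkbia, Nfkbib and Nfkbie, Bcl3 and Zfp36, none past the adjusted threshold, and the higher one was Dusp5. NF-κB is held in the cytoplasm by IκB proteins, which are themselves among its targets. Nfkbia, which encodes IκBα (mm10 chr12:55489410-55492647, minus strand), had 107.4, 82.4 and 80.8 CPM in 4xLPS_NO and 172.0, 106.1 and 167.8 CPM in 1xLPS_NO. The groups overlapped by a narrow margin through 1xLPS_NO library 2, and PBS_NO was at 90.5, 84.8 and 81.2 CPM. The log2 fold change was -0.72 ± 0.18 (edgeR adjusted p = 0.355, DESeq2 adjusted p = 0.0275, 1.53e-07 to 0.945 over 22 alternatives, 4 calls). Nfkbib, for IκBβ, had -0.74 ± 0.19 and Nfkbie, for IκBε, -0.52 ± 0.14. Of the 5 NF-κB subunits, which belong to another list, Nfkb2 had -0.51 ± 0.16 and Relb -0.45 ± 0.14, while Rela had -0.16 ± 0.17, Nfkb1 -0.26 ± 0.16 and Rel 0.23 ± 0.24. With the GC offset the values were -0.65 for Nfkbia, -0.50 for Nfkbib, -0.41 for Nfkbie, -0.30 for Nfkb2 and -0.30 for Relb, whose transcripts hold 52.9% to 59.4% G and C. Tnfaip3 (-0.06), Irak3 (-0.16) and Socs1 (0.02), brakes of TLR4 and cytokine signalling, were near 0.

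The promoters of Nfkbia and Nfkbie from RefSeq (GRCm38.p6) are shown because both inhibitor genes were lower at an unadjusted p under 0.05. Nfkbib was lower at that level as well and is not shown. Each promoter is given as 250 bases upstream of the start, 5′ to 3′ in the direction of the gene, with motif matches in capitals. The motifs searched on both strands were GGG, any 2 bases and TTTCC for NF-κB, TGANTCA for AP-1 and GGAATG for TEAD factors, which 1.41%, 6.75% and 12.6% of 32851 promoters hold. Nfkbia has 1 NF-κB match and Nfkbie 1 AP-1 match. The first listed promoter of Postn, searched in the same way and not shown, has 0 matches to each motif. A match is a description of letters and not a site.
Nfkbia, chr12:55492648-55492897, minus strand: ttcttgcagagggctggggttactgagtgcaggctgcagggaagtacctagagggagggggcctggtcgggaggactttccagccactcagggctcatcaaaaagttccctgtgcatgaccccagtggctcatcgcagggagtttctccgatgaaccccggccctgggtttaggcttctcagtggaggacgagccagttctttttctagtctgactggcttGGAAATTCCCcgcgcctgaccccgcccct
Nfkbie, chr17:45555450-45555699, plus strand: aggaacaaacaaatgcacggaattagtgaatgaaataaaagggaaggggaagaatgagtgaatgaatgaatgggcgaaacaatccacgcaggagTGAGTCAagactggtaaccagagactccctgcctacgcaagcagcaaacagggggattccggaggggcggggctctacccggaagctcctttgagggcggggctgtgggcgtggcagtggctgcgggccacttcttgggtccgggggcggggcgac

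The list of LPS sensing and NF-κB signalling, from Toll-like receptors through adaptors and kinases to the NF-κB subunits and 2 interferon regulatory factors, had 14 positive and 17 negative fold changes. Of these 31 genes, 6 were lower at an unadjusted p under 0.05 and 0 higher (6.22% and 3.33% of all genes), with a median of -0.02 that was 0.08 without 1xLPS_NO library 2 and 0.005 with library totals as scaling. The 6 were Nfkb2 and Relb, named above, the adaptor Myd88, the kinase Irak1 and the transcription factors Irf3 and Irf5. Tlr4 had 39.3, 38.8 and 41.0 CPM in 4xLPS_NO and 21.5, 49.95 and 27.4 CPM in 1xLPS_NO (0.26 ± 0.23). The spread of the 1xLPS_NO libraries covered the 4xLPS_NO values. Cd14, its coreceptor, had -0.23 ± 0.31. Among the adaptors, Myd88 had 63.4, 56.2 and 52.1 CPM against 76.6, 70.1 and 83.3 CPM (-0.42 ± 0.14, edgeR adjusted p = 0.388).

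Inflammatory cytokine genes, measured here without LPS in the dish, mostly had fold changes small against their errors. Tnf had 20.7, 22.6 and 23.7 CPM in 4xLPS_NO and 27.2, 20.1 and 22.98 CPM in 1xLPS_NO, with a log2 fold change of -0.07 ± 0.27. Il1b (-0.26 ± 0.58), Cxcl10 (0.13 ± 0.43) and Irg1, the itaconate enzyme now called Acod1 (0.06 ± 0.26), had intervals that cover changes in both directions. Il6 was at 0 to 0.122 CPM and Nos2 at 0.088 to 0.122 CPM in the 6 libraries, near the level of 3 counts, so no fold change is given, and Il10 and Arg1 did not pass the filter. Of 32 cytokine and chemokine genes, 2 were higher and 2 lower at an unadjusted p under 0.05 (3.33% and 6.22% of all genes), with a median of 0.02 that took either sign across the alternatives (-0.07 with the 6 compared libraries only). One of the lower, Cxcl16, a chemokine and scavenger receptor, had 251.1, 217.9 and 230.8 CPM against 347.6, 293.3 and 323.1 CPM (-0.46 ± 0.14). The other, Cxcl9, was at most 0.407 CPM in any of the 6 libraries. Csf2 had no count in either group.

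Among 31 type I interferon response genes, 0 were higher and 2 lower at an unadjusted p under 0.05, against 3.33% and 6.22% of all genes, and the median was -0.13 (-0.03 without 1xLPS_NO library 2, -0.04 without library 3). Ifit1 had -0.02 ± 0.32 and Irf7 -0.62 ± 0.43. Of 18 interferon gamma inducible genes, 0 were higher and 3 lower, 6 fold changes were positive and 12 negative, and the median was -0.13 (-0.31 without 1xLPS_NO library 1, 0.03 without 4xLPS_NO library 3). The transcription factors Irf1 and Irf8, which interferon gamma induces, had -0.58 ± 0.16 and -0.50 ± 0.17. For Irf8 the levels were 194.9, 209.3 and 212.6 CPM in 4xLPS_NO against 318.3, 246.7 and 305.1 CPM in 1xLPS_NO, with PBS_NO at 261.8, 252.5 and 254.7 CPM. Irf8 and Spi1 (PU.1, -0.45 ± 0.16, and -0.27 with the GC offset) were the 2 of 29 macrophage identity genes that were lower at an unadjusted p under 0.05, and Msr1, Cd36 and Ccr2 the 3 that were higher, against 6.22% and 3.33% of all genes. The scavenger receptors Msr1 and Cd36 had 0.39 ± 0.14 and 0.55 ± 0.18, and with the GC offset 0.15 and 0.33. The mannose receptor Mrc1 had 0.40 ± 0.20 and Csf1r -0.27 ± 0.19.

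The gene with the smallest p was Sh3gl1, an endophilin of membrane traffic, with 65.9, 73.9 and 68.2 CPM in 4xLPS_NO and 121.7, 96.2 and 127.3 CPM in 1xLPS_NO. The groups did not overlap and PBS_NO, at 79.7, 73.5 and 66.9 CPM, lay near 4xLPS_NO (-0.73 ± 0.13, unadjusted p = 3.53e-05, edgeR adjusted p = 0.321). DESeq2 gave an adjusted p of 0.00161 (1.29e-07 to 0.945 over 22 alternatives, 5 calls). Junb, an AP-1 subunit, had 106.3, 90.2 and 92.0 CPM against 202.8, 142.7 and 227.9 CPM, with -0.99 ± 0.22. Its transcript GC content is 62.6%, and with the GC offset its log2 fold change was -0.74. Rpl35, a ribosomal protein, had 43.3, 35.8 and 35.7 CPM against 99.7, 82.6 and 89.6 CPM (-1.24 ± 0.31). 5 other annotated genes share near-identical stretches, so its reads are uncertain. Over 30 ribosomal protein genes the median was -0.23 with all libraries and 0.38 without 1xLPS_NO library 1.

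Among the higher genes outside the matrix, Ptgs2, the inducible cyclooxygenase that makes prostaglandins, had 21.8, 53.3 and 55.6 CPM in 4xLPS_NO and 18.0, 13.2 and 8.64 CPM in 1xLPS_NO. 4xLPS_NO library 1 was near the 1xLPS_NO range (1.69 ± 0.45, edgeR adjusted p = 0.355). Pla2g4a, the phospholipase that releases arachidonic acid, had 12.7, 12.5 and 10.6 CPM against 5.99, 8.66 and 5.38 CPM (0.81 ± 0.18). Txnrd1, thioredoxin reductase, had 494.6, 502.9 and 515.0 CPM against 287.0, 317.6 and 295.1 CPM, and 486.4, 513.7 and 494.4 CPM in PBS_NO, so the 1xLPS_NO libraries were the low ones. Of 20 oxidative stress genes, 4 were higher and 2 lower at an unadjusted p under 0.05 (3.33% and 6.22% of all genes). Hmox1, the heme oxygenase, had -0.01 ± 0.25.

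Of the 37 genes that DESeq2 called and edgeR did not, the 30 lower ones had a median transcript GC content of 57.8% and the 7 higher ones 46.6%. The 5 described here were chosen after their values were seen and stand for no group. Tcirg1, a subunit of the proton pump that acidifies lysosomes, had 717.7, 873.9 and 732.0 CPM in 4xLPS_NO and 1269, 959.6 and 1402 CPM in 1xLPS_NO (-0.64 ± 0.15, DESeq2 adjusted p = 0.0141, edgeR 0.355). Ncf4, the p40 subunit of the phagocyte NADPH oxidase, had 204.1, 168.6 and 169.5 CPM against 279.8, 225.6 and 287.8 CPM (-0.55 ± 0.14). Unc13d, which primes granules for secretion, had 39.6, 37.8 and 36.7 CPM against 71.6, 45.7 and 72.7 CPM (-0.73 ± 0.16). In these 3 genes the groups did not overlap and 1xLPS_NO library 2 was the lowest of its group, nearest to 4xLPS_NO. Among the higher, Slc16a1, the monocarboxylate transporter MCT1, had 20.7, 28.5 and 25.6 CPM against 13.0, 17.0 and 10.3 CPM (0.88 ± 0.20). Bcat1, a branched-chain aminotransferase, had 33.5, 32.6 and 36.0 CPM against 17.4, 16.7 and 13.8 CPM (1.09 ± 0.27), with PBS_NO at 13.4, 13.6 and 17.5 CPM. In the list of lysosome and phagocytosis genes, 1 of 27 was higher and 1 lower at an unadjusted p under 0.05 (3.33% and 6.22% of all genes). The median was -0.03 (-0.14 without 1xLPS_NO library 2, 0.01 without library 1).

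Cell cycle genes had 25 positive and 7 negative fold changes among 32, with 5 higher and 1 lower at an unadjusted p under 0.05 (3.33% and 6.22% of all genes) and a median of 0.19. It was 0.45 without 1xLPS_NO library 1 and 0.03 without library 2. Rrm2, a subunit of ribonucleotide reductase, had 20.3, 23 and 23.5 CPM against 15.0, 15.2 and 9.28 CPM, while Pcna, the replication clamp, had -0.57 ± 0.21. The 13 mitochondrially encoded transcripts were all positive, with a median of 0.55, of which 2 were higher at an unadjusted p under 0.05. The median was 0.29 with the GC offset, 0.84 without 1xLPS_NO library 2 and 0.25 without library 3. The summed level of the 13 was 4533, 4117 and 4923 CPM in 4xLPS_NO and 3245, 4345 and 1790 CPM in 1xLPS_NO. Over all symbols that start with mt-, not only these 13, 1xLPS_NO library 3 had 0.275% of its counts. On that measure 1xLPS_NO libraries 1 and 2 had 0.551% and 0.578%, and 4xLPS_NO had 0.606% to 0.726%. Of 12 neutrophil markers, 4 were higher and 1 lower at an unadjusted p under 0.05, against the same shares of all genes. Their median was 0.50, and 0.28 without 1xLPS_NO library 2. S100a8 had 8.43, 15.0 and 16.9 CPM against 10.1, 5.55 and 4.85 CPM, so its groups overlapped. In PBS_NO it had 11.9, 15.7 and 11.3 CPM. The lower marker, Csf3r, had 83.9, 82.5 and 77.3 CPM against 91.1, 113.9 and 150 CPM (-0.54 ± 0.18), without overlap.

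**Figure D5:**
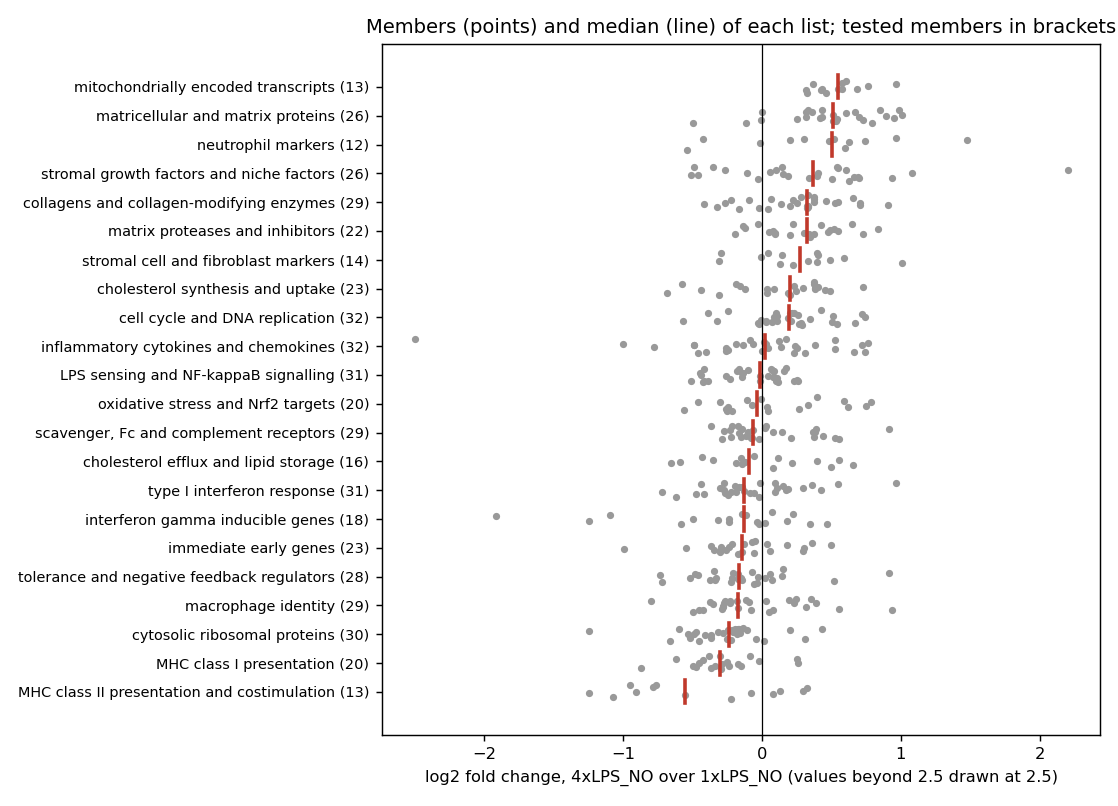
Log2 fold change of 4xLPS_NO over 1xLPS_NO of every tested member (points) of 22 gene lists, with the median as a line and the number of tested members in brackets; values beyond 2.5 are drawn at 2.5. Medians run from 0.55 for mitochondrially encoded transcripts and 0.51 for matricellular genes to -0.55 for MHC class II genes.

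The difference between the arms was also tested against the same contrast in LPS-stimulated cells, which used the other libraries of these arms. By edgeR's test of the interaction, 0 of 14158 genes had an adjusted p under 0.05, 300 had an unadjusted p under 0.05, and DESeq2 called 0 as well (357 unadjusted). In stimulated cells, 4xLPS over 1xLPS gave 0 calls, with 397 genes higher and 451 lower at the unadjusted level. Loxl2 had 0.34 ± 0.18 there, and the interaction was -0.57 ± 0.25 (adjusted p = 1). The comparisons with PBS_NO share libraries with the present one and are given as counts: 4xLPS_NO over PBS_NO had 680 genes higher and 169 lower at an unadjusted p under 0.05, and 1xLPS_NO over PBS_NO had 1090 higher and 579 lower, with 0 calls in each (edgeR).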

How the data were processed

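Counts of reads per gene symbol for 18 libraries were used as deposited by the authors. The sheet name speaks of RPM, but the values are whole numbers with unequal totals, so they were taken as raw counts. Per the labels' protocols, mRNA was selected with Dynabeads from 500 ng of total RNA, Ion Total RNA-seq libraries were sequenced on an Ion Proton and processed with Torrent Suite 5.12. TopHat2, Bowtie2, Cufflinks and the build mm10 are named per the submitters' processing notes. For the counting program, annotation and strand the status is: not given in the sources used here. Thus overlapping genes and near-identical copies are uncertain. The authors' second sheet of 9 verdicts was copied only.

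Counts were TMM-scaled and fitted with edgeR 4.0.16 (glmQLFit, glmQLFTest; R 4.3.3), with a mean for each of 6 groups in the 18 libraries, without a block, 12 residual degrees of freedom, with Benjamini-Hochberg adjustment over 14158 genes and calls at 0.05. CPM are TMM-scaled, and log2 fold changes are 4xLPS_NO over 1xLPS_NO with SE. Alternatives were RLE factors, library totals, DESeq2 1.42.0, limma voom (3.58.1), other filters, fewer libraries, a replicate block, a GC offset (loess span 0.5) and each library left out. The GC offset, DESeq2 on 6 libraries, and DESeq2 or voom without 1xLPS_NO library 2 were chosen after seeing the data. GC content, positions and overlaps come from GENCODE M21 of GRCm38. Replicate libraries differed by more than counting noise, so none was merged. The procedure was tested on simulated data, with changes placed only in genes of higher counts and without the GC tilt. It recovered 5.97% of the genes changed 1.5-fold, 50.7% of those changed 2-fold and 95.5% of those changed 4-fold, with 4 false calls. Finding 0 calls therefore does not show that smaller differences are absent.

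Members and lists were chosen with earlier results of these data known. The rule for named genes took called genes by fold change, then for every described list at most 4 called genes (by p) with at most 2 others (by level), and a fixed panel. With no calls, it left the level and panel genes. Genes with a small p or a DESeq2 call, and some other list members, were named in addition, after their values were seen.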

Additional observations from a re-analysis of the deposited data

How the results depend on the processing

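With RLE factors, library totals, voom, a filter on the 6 compared libraries, the 9 unstimulated libraries and the GC offset, 0 genes were called. A minimum of 2-fold cannot add calls. With a replicate block 0 genes were called in either direction, with 571 higher and 652 lower at an unadjusted p under 0.05 in the 6 compared libraries and 529 and 837 in all 18; same-numbered libraries correlated with r = 0.32, 0.54 and -0.292, so the numbers were not taken to pair the libraries, and library 3 did not correlate best with its own number. DESeq2 called 7 higher and 30 lower, and without the filter on low counts edgeR called 15 and 20, with 751 higher at the unadjusted level. With only the 6 compared libraries, 296 were higher and 456 lower at the unadjusted level. DESeq2 on those 6 called 15 and 5 (505 lower unadjusted), and of its 20 calls 6 were among the 37 of DESeq2 on 18 libraries (30% and 16.2% of the lists).

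Leaving out 1 library at a time gave 0 to 225 genes higher and 0 to 348 lower, and 273 to 1559 higher and 398 to 1804 lower at the unadjusted level. Of these 6 libraries, only leaving out 1xLPS_NO library 2 gave calls. Without it DESeq2 called 651 and 894 (1644 and 1962 unadjusted), voom 128 and 256 (1537 and 1757), and the GC offset left 831 higher at the unadjusted level. Of the 37 DESeq2 calls, 35 were among the 573. Without 1xLPS_NO library 1 and 1xLPS_LPS library 3 together, 35 were called higher and 20 lower (1115 higher unadjusted), 9 of them among the 573. The cause was not tested. Of 3232 fold changes of 148 genes under the alternatives, 79, in 22 genes, had the opposite sign to the reported value, each in a gene whose reported fold change lay within 1 SE of 0. Among them were Il1b, Cxcl10, Tnf, Hmox1, Cd14 and Col3a1. For such genes 22 values moved by over 1 SE. 1xLPS_NO library 3 had the fewest counts of the 6 libraries, 9296453; without it 0 genes were called.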
